A study of Mus musculus with 24 samples.

Results

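Dentate gyrus RNA of APP/PS1 mice that received both the drug BCI-838 and a running wheel was compared with that of wild-type (WT) control mice. The comparison uses 10 of the 24 libraries of the series, 5 per group, assigned to their groups by the title, genotype and treatment given for each library. APP/PS1 mice carry transgenes, that for the amyloid precursor protein among them, and form amyloid plaques. The combined group took BCI-838 orally, 5 mg/kg each day over 1 month, and had free access to a wheel over 1 month. WT controls were C57BL6/J mice with neither drug nor wheel, and the sources do not say which untreated mice received vehicle. Genotype, drug and wheel therefore differ together between the groups, and their parts in a difference cannot be told apart from this comparison. The sample descriptions carry the word borchelt. APP/PS1 lines known by that name express their transgenes from sequences of the mouse prion gene Prnp. The sources used here give neither the line and its breeding background nor the age and sex of the mice. The remaining libraries, from APP/PS1 controls (5), APP/PS1 mice on BCI-838 alone (4) and APP/PS1 mice with a wheel alone (5), entered the fit to estimate the spread and are given beside results where they bear on them.

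The dentate gyrus receives the cortical input to the hippocampus, and its granule neurons are among the few neurons that mammals add in adult life. BCI-838 is taken up as a pro-drug, and its active form blocks mGluR2 and mGluR3, metabotropic glutamate receptors made from Grm2 and Grm3, which sit largely on presynaptic terminals and glia and dampen glutamate release. Wheel running is known to raise the birth of granule neurons, and amyloid deposition is known to draw microglia and astrocytes into reactive states.

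The counts of the 10 libraries summed to between 48656360 and 64632882. Levels are given as CPM, counts scaled to a common library total by TMM, which adjusts library totals for differences in RNA composition. Markers of granule neurons were present in every library, but the dissections were not alike. Prox1, a transcription factor that defines granule neurons, was 58.6, 135, 14.3, 150.7 and 139 CPM in WT libraries 1 to 5 and 109.5, 124, 175, 57.2 and 53.7 CPM in combined libraries 1 to 5. WT library 3 was far below the others, and combined libraries 4 and 5 were at the level of WT library 1. Genes of neighbouring tissue also varied. Prkcd, a kinase gene abundant in thalamus, reached 447 CPM in WT library 2 against 8.23 to 51.4 CPM in the other 9 libraries. Pax7, a transcription factor of the dorsal midbrain, was 9.45 and 3.47 CPM in WT libraries 1 and 5 and 3.93 and 2.34 CPM in combined libraries 2 and 3, and under 1 CPM in the rest. Ttr, a choroid plexus transcript, was 297 CPM in combined library 5 and at most 15.6 CPM in the others. Pearson correlations of log2 CPM were 0.963 to 0.989 between the groups, 0.969 to 0.986 within WT and 0.974 to 0.984 within the combined group, so pairs across the groups were as alike as pairs within them.

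**Figure D1:**
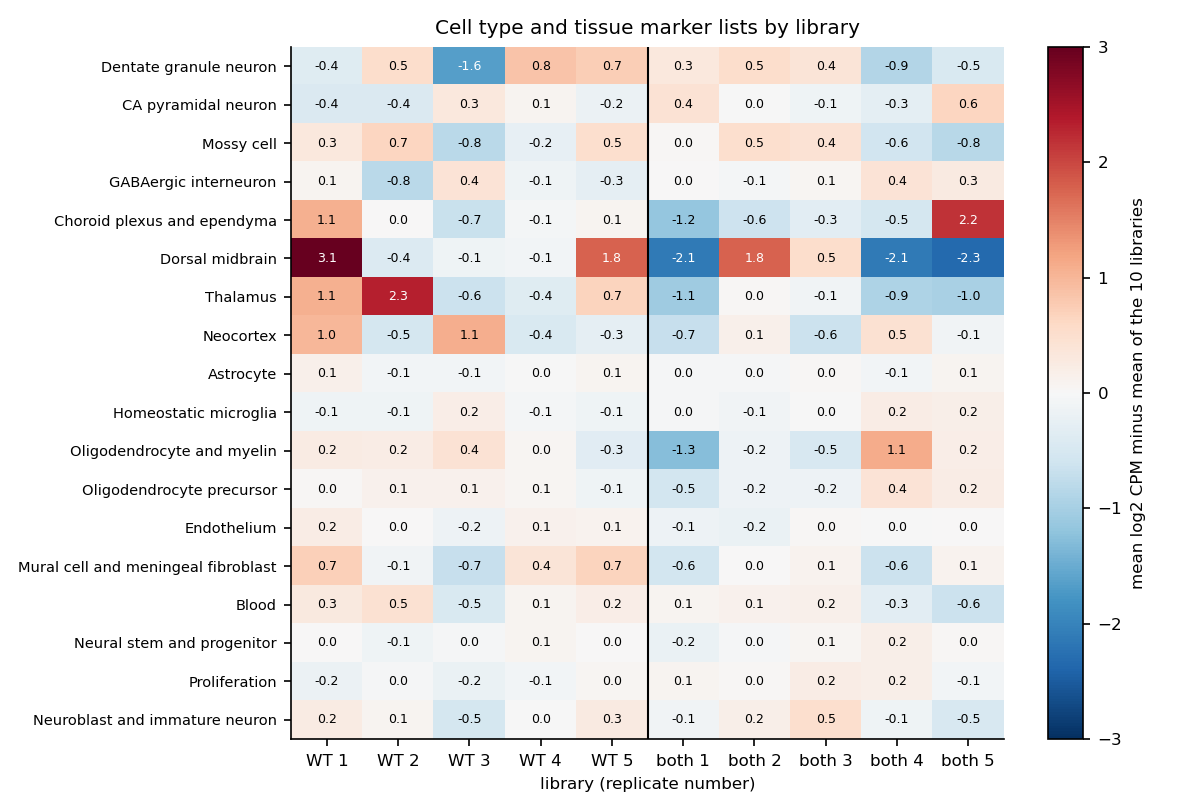
Marker lists of cell types and neighbouring tissues in the 10 libraries, shown as the mean log2 CPM of a list minus its mean over the 10 libraries (red above, blue below). WT library 3 is low for granule neurons, WT library 2 is high for thalamus, WT libraries 1 and 5 and combined library 2 are high for dorsal midbrain, and combined library 5 is high for choroid plexus.

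Prnp, App and Cass4 were higher in the combined group than in WT, and these 3 genes were all that passed. They are 0.0164% of the 18286 genes tested, and no gene was called lower (0%). DESeq2 called 12 genes, 6 of them lower, and limma voom called 2. A gene passed at a Benjamini-Hochberg adjusted p under 0.05 in the quasi-likelihood test of edgeR, adjusted over the 18286 genes. At an unadjusted p under 0.05 there were 1156 genes (6.32%), of which 430 were higher (2.35%) and 726 lower (3.97%) in the combined group. In 42 genes (0.23%) the 5 combined libraries lay above the 5 WT libraries, and in 57 (0.312%) they lay below. The median log2 fold change over the tested genes was -0.01.

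Prnp encodes the prion protein, a cell-surface glycoprotein abundant in neurons. Its level was 755, 911, 985, 801 and 775 CPM in WT libraries 1 to 5 and 2216, 2008, 2088, 2366 and 2219 CPM in combined libraries 1 to 5. Each combined library lay far above the highest WT library, and the groups did not overlap. The means were 846 ± 98.7 CPM (SD, n = 5) and 2179 ± 138 CPM (SD, n = 5), a 2.58-fold difference with a log2 fold change of 1.37 (SE 0.10, edgeR adjusted p = 2.21e-08).

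App encodes the amyloid precursor protein, from which amyloid beta is cut. It measured 1759, 1826, 2073, 1531 and 1452 CPM in WT libraries and 4038, 3340, 3878, 4054 and 4025 CPM in combined libraries. Combined library 2 was the lowest of its group and still stood above each WT library. The means were 1728 ± 247 CPM (SD, n = 5) and 3867 ± 303 CPM (SD, n = 5), a 2.24-fold difference with a log2 fold change of 1.16 (SE 0.12, edgeR adjusted p = 7.43e-06). Prnp shares 145 exonic bases with Prn on its own strand and App 113 with Gm49227 on the opposite strand. Counts per gene do not separate reads of a transgene from reads of the native gene.

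Cass4 encodes a scaffold protein of the Cas family that acts in focal adhesion and cytoskeletal signalling, and its human locus is known from association studies of Alzheimer's disease. It was scarce, at 0.969, 0.656, 0.793, 1.24 and 0.772 CPM in WT libraries (34 to 67 reads) and 3.15, 1.39, 3.35, 2.37 and 1.42 CPM in combined libraries (75 to 170 reads). The groups did not overlap, but combined libraries 2 and 5 lay close to the highest WT library, and libraries 1, 3 and 4 carried most of the difference. The means were 0.887 ± 0.229 CPM (SD, n = 5) and 2.34 ± 0.924 CPM (SD, n = 5), a 2.63-fold difference with a log2 fold change of 1.39 (SE 0.24, edgeR adjusted p = 0.0486). This call was narrow. It was lost with limma voom (adjusted p = 0.216), in an edgeR fit of the 10 libraries alone (0.90), with the mean log2 CPM of the dorsal midbrain list as a covariate (0.138), or with that of granule minus CA genes (0.0625), and without any of WT libraries 1, 2, 3 or 5 or combined libraries 1, 3 or 4 (0.106 to 0.295), while the log2 fold change stayed between 1.23 and 1.54. Cass4 shares 1130 exonic bases with Gm14455 on the opposite strand, and the sources used here do not say whether counting used strand.

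**Figure D2:**
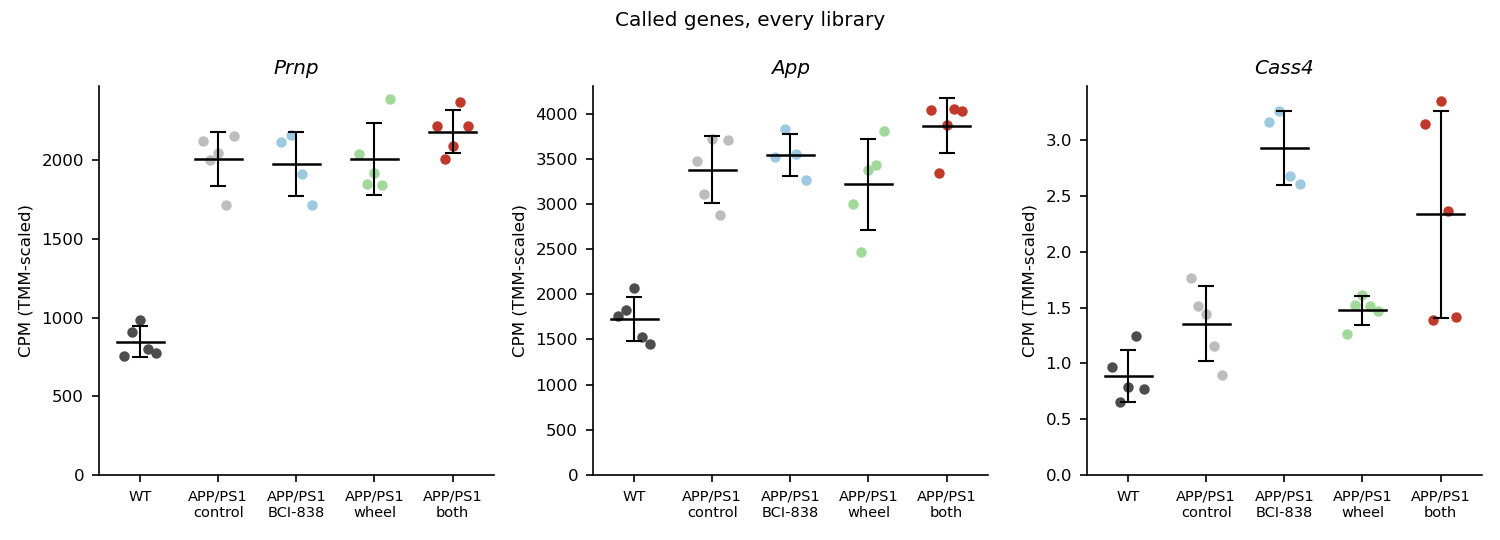
CPM of Prnp, App and Cass4 in each of the 24 libraries by group, with the mean (bar) and SD (whiskers); every axis starts at 0. For Prnp and App the 4 APP/PS1 groups lie together above WT, while for Cass4 the BCI-838 and combined groups reach the highest levels.

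The windows around the transcription start sites of the 3 called genes are shown because these genes carry the result and because sequences of the Prnp gene drive transgenes in lines of the name above. Each holds the 250 bases before and 50 bases after the start of the RefSeq gene on GRCm38.p6. Capitals mark matches on either strand to TATAAA (letters of the TATA box), to CCAAT (the CCAAT box) and to GGGCGG (the GC box), which do not overlap each other here. Prnp lies on chromosome 2 (131909928 to 131938429, plus strand), and its window is chr2:131909678-131909977. App lies on chromosome 16 (84949685 to 85173766, minus strand), and its window is chr16:85173658-85173957. Cass4 lies on chromosome 2 (172393794 to 172433757, plus strand), and its window is chr2:172393394-172393693. The gene coordinates are those of GENCODE, whose starts of App and Cass4 differ from the RefSeq starts used for the windows. The Cass4 window ends before the GENCODE start of the gene.
Prnp: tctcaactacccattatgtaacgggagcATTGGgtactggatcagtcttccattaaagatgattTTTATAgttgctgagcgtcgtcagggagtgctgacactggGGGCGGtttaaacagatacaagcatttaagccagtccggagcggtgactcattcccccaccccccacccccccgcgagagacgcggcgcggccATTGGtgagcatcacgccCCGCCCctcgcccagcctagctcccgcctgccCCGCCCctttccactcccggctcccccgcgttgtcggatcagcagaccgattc
App: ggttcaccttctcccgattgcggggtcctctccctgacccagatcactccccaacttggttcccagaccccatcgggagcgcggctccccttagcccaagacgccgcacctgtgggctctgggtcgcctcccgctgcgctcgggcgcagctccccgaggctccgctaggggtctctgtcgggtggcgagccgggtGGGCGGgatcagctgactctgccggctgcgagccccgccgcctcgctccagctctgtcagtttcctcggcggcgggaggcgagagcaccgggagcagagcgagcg
Cass4: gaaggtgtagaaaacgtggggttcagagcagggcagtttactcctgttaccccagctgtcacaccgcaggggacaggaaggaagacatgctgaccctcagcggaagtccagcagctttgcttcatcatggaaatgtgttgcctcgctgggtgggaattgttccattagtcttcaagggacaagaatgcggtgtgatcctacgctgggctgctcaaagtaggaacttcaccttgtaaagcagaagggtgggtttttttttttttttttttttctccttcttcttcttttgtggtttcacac
The Prnp window holds 1 TATAAA, 2 CCAAT and 3 GGGCGG matches, with a GC content of 60.0%. App has 1 GGGCGG match and neither of the other motifs, at 71.0% GC, and Cass4 has no match to the 3 motifs, at 48.0% GC. Of 32851 mouse windows of the same length, 13.6% hold TATAAA, 37.4% CCAAT and 35.7% GGGCGG, and the median GC content is 52.7%. The 3 windows are thus unlike each other in these letters.

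Prnp and App stood above WT by like amounts in each APP/PS1 group, against the same 5 WT libraries. The log2 fold changes of Prnp over WT were 1.25 in APP/PS1 controls, 1.22 with BCI-838 alone, 1.25 with the wheel alone and 1.37 with both. Those of App were 0.97, 1.04, 0.90 and 1.16. Cass4 differed more among the groups, at 0.61 in controls, 1.72 with BCI-838 alone (edgeR adjusted p = 0.00412), 0.74 with the wheel alone and 1.39 with both. The difference between the combined group and APP/PS1 controls was tested directly, and no gene passed (0%), while 1938 genes (10.6%) had an unadjusted p under 0.05. In that test the log2 difference was 0.12 for Prnp (SE 0.10, edgeR adjusted p = 0.678), 0.19 for App (SE 0.11, edgeR adjusted p = 0.556) and 0.78 for Cass4 (SE 0.24, edgeR adjusted p = 0.301). DESeq2 called 82 genes in it and limma voom 0. The 2 groups also differed in choroid plexus RNA. The summed level of that marker list was 252 to 2611 CPM in APP/PS1 controls and 134 to 722 CPM in the combined group. The median log2 difference of the list, combined group over controls, was -2.53. The part of this tissue in the 82 calls was not tested.

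The 2 receptors that the drug targets did not pass. Grm2 was 88.8, 114, 42.1, 121.5 and 142 CPM in WT libraries and 79.4, 128, 123, 59.5 and 37.7 CPM in combined libraries. The low values were in WT library 3 and combined libraries 4 and 5, the libraries with the least Prox1, and the groups overlapped (log2 fold change -0.25, SE 0.30, edgeR adjusted p = 0.938). Grm3 was 47.6, 42.6, 53.8, 46.6 and 43.7 CPM in WT libraries and 34.4, 37.1, 38.7, 54.2 and 45.1 CPM in combined libraries, again with overlap (-0.16, SE 0.17, edgeR adjusted p = 0.931). Of the 7 metabotropic glutamate receptors measured, 2 had the higher mean in the combined group, and the median log2 fold change was -0.16, or -0.07 without combined library 5. Grm5, a postsynaptic receptor of the first group of the family, had an unadjusted p under 0.05 with a log2 fold change of 0.28. Grm4, a presynaptic receptor, had one with -1.02, and its highest value, 47.4 CPM, was in WT library 2. Among 12 secretases and App-like genes 4 were higher, with a median of -0.01. Adam10, the main alpha-secretase of neurons, measured 69.02, 71.4, 67.5, 77.2 and 75.1 CPM in WT libraries and 87.3, 71.4, 91.7, 88.03 and 87.8 CPM in combined libraries. Combined library 2 lay among the WT libraries and the other 4 above them, with a log2 fold change of 0.24 (SE 0.10, edgeR adjusted p = 0.698).

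Beyond the called genes, the genes with the next smallest p shared an edgeR adjusted p of 0.482 and did not pass. Of these, 9 higher and 10 lower genes are described. Sh2d5, which encodes an adaptor protein of the brain, had the smallest p among the higher ones. It measured 79.4, 74.8, 86.5, 88.7 and 88.0 CPM in WT libraries and 149.6, 97.1, 188, 116 and 91.4 CPM in combined libraries. The groups did not overlap, as was so in this direction for 0.23% of all genes tested. Combined libraries 1 and 3 were far above and libraries 2 and 5 just above WT (log2 fold change 0.62, SE 0.14). Rprm, an inhibitor of the cell cycle under p53, showed that order more strongly. Its level was 15.9 to 22 CPM in WT and 73.5, 28.0, 224, 72.3 and 14.6 CPM in combined libraries 1 to 5. Col6a1, a chain of collagen VI, was 3.69 to 19.98 CPM in WT and 94.1, 11.5, 118, 33.9 and 14.0 CPM in the combined group. Chmp4c, a subunit of the membrane-scission complex ESCRT-III, was 0.0395 to 0.159 CPM in WT and 0.296, 0.387, 1.53, 0.801 and 0.114 CPM in the combined group. For Rprm and Col6a1 combined libraries 1, 3 and 4 stood above WT and libraries 2 and 5 at or near it. For Chmp4c libraries 1 to 4 were above WT, 3 most, and library 5 was within its range. The log2 fold changes were 2.08 (SE 0.50) for Rprm, 2.53 (SE 0.65) for Col6a1 and 2.49 (SE 0.58) for Chmp4c.

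The other higher genes differed less in size. Slc35d1, a transporter of nucleotide sugars, was 10.8 to 13.9 CPM in WT and 13.7 to 15.8 CPM in the combined group (log2 fold change 0.32, SE 0.08). Dpy19l3, a mannosyltransferase, was 55.1 to 73.1 CPM in WT. It was 93.0 to 106 CPM in 4 combined libraries and 59.7 CPM in combined library 2 (0.55, SE 0.13). Without that library Dpy19l3 passed (edgeR adjusted p = 0.0144). Dpy19l3 passed in no other fit run, and its log2 fold change was 0.44 with the dorsal midbrain covariate. Dgkg, a diacylglycerol kinase, gave 0.59 (SE 0.15), Rabgap1l, a regulator of Rab GTPases, 0.47 (SE 0.12), and Slc7a4, a member of the cationic amino acid transporter family, 0.47 (SE 0.12). Chmp4c shares 330 exonic bases with Snx16 and Slc7a4 shares 554 with P2rx6, each on the opposite strand, so reads of these pairs may mix.

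Among the 10 lower genes, Prr16 and Kitl had no overlap between the groups. Over all genes tested, 57 (0.312%) lay apart in this direction. The 10 genes were picked by their p in the same comparison, which favours such separation. Prr16, which acts on cell size and translation, was 3.90, 8.28, 5.37, 4.40 and 3.88 CPM in WT libraries and 2.37, 3.05, 3.31, 3.12 and 2.29 CPM in combined libraries (log2 fold change -0.87, SE 0.20). Kitl encodes the ligand of the receptor Kit. It was 33.8, 94.0, 23.2, 21.3 and 27.1 CPM in WT libraries and 12.4, 16.8, 19.1, 16.8 and 13.6 CPM in combined libraries (-1.34, SE 0.34). WT library 2, which had the most Prkcd, was the highest for both genes, and the other WT libraries lay nearer to the combined group. Without WT library 2 the log2 fold changes were -0.75 for Kitl and -0.64 for Prr16.

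Igfbp5, which binds insulin-like growth factors, was 420.3, 320.0, 193, 385.5 and 372 CPM in WT libraries and 171, 278, 196.5, 228 and 236 CPM in combined libraries (log2 fold change -0.61, SE 0.15). WT library 3 was low and the other WT libraries lay above the combined group. Magi1, a scaffold of cell junctions, had the same order, with 86.2 CPM in WT library 3, 129 to 145 CPM in the other WT libraries and 70.4 to 113 CPM in the combined group (-0.55, SE 0.13). Without WT library 3 both passed, with an edgeR adjusted p of 0.0154 for Igfbp5 and 0.0461 for Magi1. Neither passed in any other fit that left out 1 library. With the dorsal midbrain covariate neither passed, and the log2 fold changes were -0.50 for Igfbp5 and -0.43 for Magi1. Pnpla3, a lipase of the patatin family, was 18.9 to 25.6 CPM in WT and 13.6 to 19.7 CPM in the combined group (-0.49, SE 0.11). Tpd52l1, of the tumour protein D52 family, gave -0.64 (SE 0.16).

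Aldh1a2, a retinoic acid synthase of the meninges, was 13.1, 5.85, 1.67, 7.82 and 14.1 CPM in WT libraries and 1.11, 3.48, 2.46, 0.556 and 2.88 CPM in combined libraries (log2 fold change -2.02, SE 0.49). Fzd10, a Wnt receptor, was 4.79 and 13.8 CPM in WT libraries 1 and 2 and 0.793 to 1.56 CPM in the other WT libraries, against 0.392 to 1.13 CPM in the combined group (-2.56, SE 0.64). Kmo, an enzyme of tryptophan breakdown, was at 0 in 1 WT library and 3 combined libraries and reached 1.24 CPM in WT library 2. Omd, a proteoglycan of connective tissue, was at most 1.54 CPM (-2.47, SE 0.62). These 4 genes were highest in WT libraries 1, 2 or 5, which also held the most thalamus or midbrain markers. Aldh1a2 and Omd were highest in WT libraries 1 and 5, which also stood highest on the meningeal and mural list. That list's mean log2 CPM in them was 0.72 and 0.673 above its mean over the 10 libraries. Combined library 2 stood about as high as WT library 5 on the midbrain list, and the 4 genes were lower in it. On the thalamus list, however, combined library 2 was at 0.025 relative to the mean of the 10 libraries. WT libraries 1, 2 and 5 were at 1.073, 2.339 and 0.658 there. The part of those tissues in these genes was not tested.

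**Figure D3:**
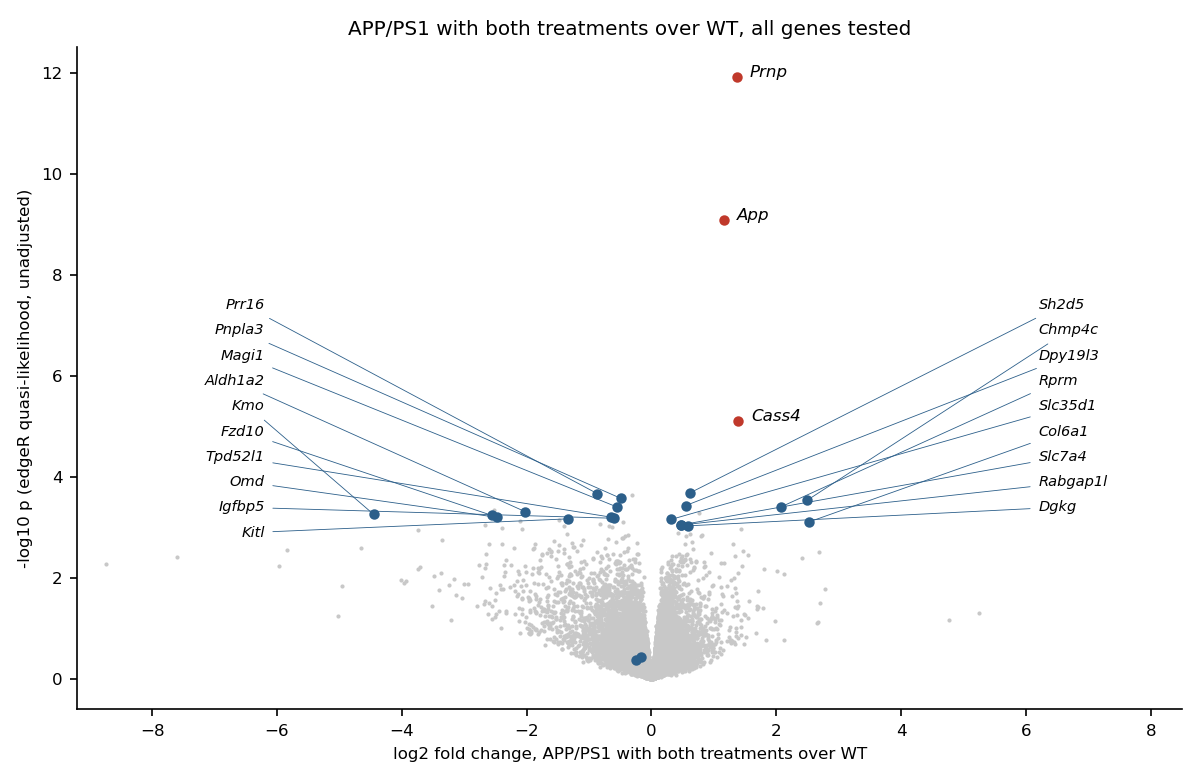
Log2 fold change of the combined group over WT (horizontal) against -log10 of the unadjusted p (vertical) for the genes tested; red marks the 3 called genes and blue the named genes that did not pass, with Grm2 and Grm3 unlabelled near the origin. Prnp and App stand apart from the rest, and Cass4 lies between them and the next genes.

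**Figure D4:**
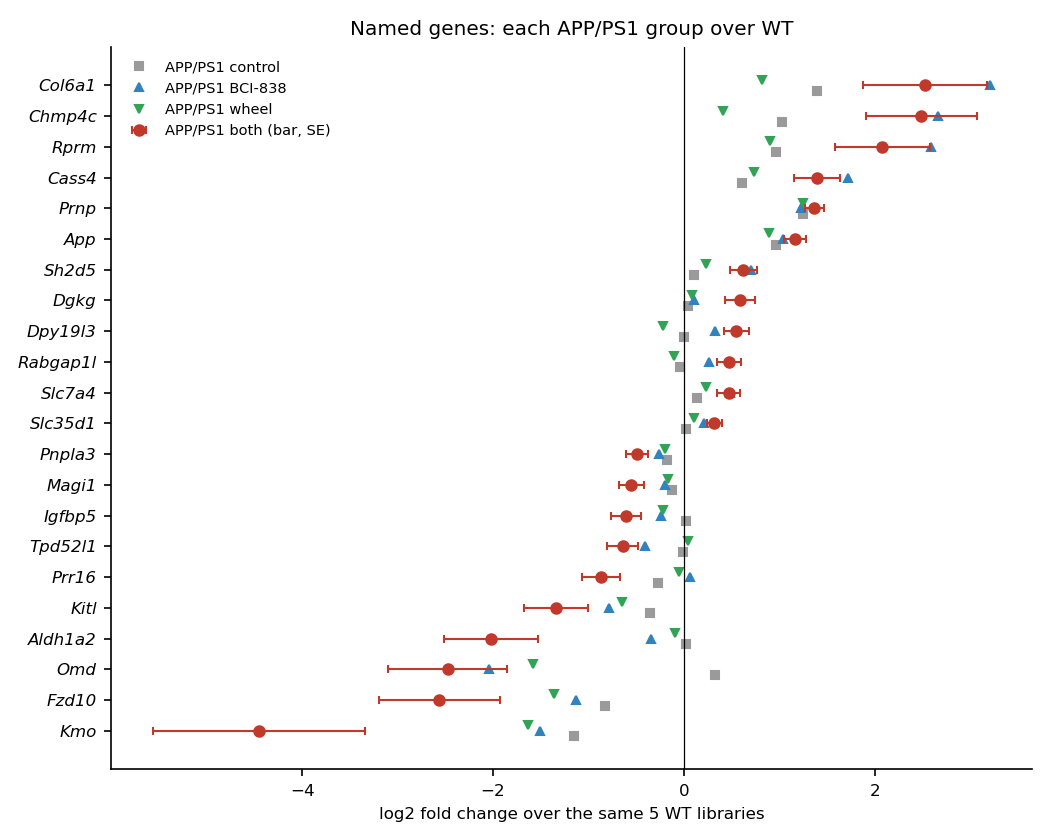
Log2 fold change of the called genes and of the next 9 higher and 10 lower genes over the same 5 WT libraries, in each APP/PS1 group; the bar is the SE of the combined group. Col6a1, Chmp4c, Rprm, Cass4 and Sh2d5 have their highest values with BCI-838 alone and the next highest with both treatments, whereas Prnp and App are close in the 4 groups.

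Across these 19 genes the other APP/PS1 groups, compared with the same WT libraries, gave different pictures. Col6a1 was 1.40 in APP/PS1 controls, 3.21 with BCI-838 alone, 0.82 with the wheel alone and 2.53 with both, as log2 fold changes over WT. Sh2d5 was 0.11, 0.70, 0.24 and 0.62, and Rprm was 0.96, 2.59, 0.90 and 2.08. Dpy19l3 was 0.01, 0.33, -0.22 and 0.55, and Aldh1a2 was 0.02, -0.35, -0.09 and -2.02. None of the 19 passed in the direct test of the combined group against APP/PS1 controls. The smallest edgeR adjusted p there was 0.229, for Omd.

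Neuronal marker lists held no gene that passed. Of 16 granule neuron genes 8 were higher and 8 lower in the combined group, with a median log2 fold change of -0.02 that was -0.25 without WT library 3 and 0.14 without combined library 4. Calb1, the calcium buffer calbindin of mature granule neurons, was 72.0, 126, 77.9, 119.9 and 127 CPM in WT libraries and 49.0, 99.4, 26.0, 28.2 and 63.7 CPM in combined libraries. Combined libraries 1, 3, 4 and 5 were below each WT library and library 2 was within their range (-0.97, SE 0.33, edgeR adjusted p = 0.606). In combined library 3 Calb1 was lowest of the 10 libraries while Prox1 was highest. Of 15 markers of CA pyramidal neurons 13 were higher, with a median of 0.33 that was 0.17 without WT library 1 and 0.05 with the midbrain covariate, and no member had an unadjusted p under 0.05. Of 15 interneuron genes 13 were higher, with a median of 0.21 that was 0.07 without WT library 2. Npy, a peptide of interneurons, was 25.0 to 64.0 CPM in WT and 56.2, 38.5, 131, 115 and 47.8 CPM in the combined group (0.91, SE 0.38, edgeR adjusted p = 0.704). Cnr1, the cannabinoid receptor of interneuron terminals, gave 0.58 (SE 0.21, edgeR adjusted p = 0.667). In bulk tissue, fewer cells of a type and less RNA per cell cannot be told apart.

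Markers of neighbouring tissue mostly had lower means in the combined group, and none passed. Of 11 thalamus genes 11 had the lower mean, with a median of -1.64 that was -0.94 without WT library 2, and 7 had an unadjusted p under 0.05. Their summed level ran from 413 to 2389 CPM in WT and from 381 to 648 CPM in the combined group. Zic1, a transcription factor of that list, was 65.9, 188, 9.77, 16.5 and 43.5 CPM in WT libraries and 5.65 to 14.0 CPM in combined libraries (-2.65, SE 0.81, edgeR adjusted p = 0.59). Slc17a6, a vesicular glutamate transporter used outside the dentate gyrus, gave -1.64 (SE 0.58, edgeR adjusted p = 0.628). Of 14 dorsal midbrain genes 1 was higher and 13 lower, with a median of -1.36, which was -0.56 without WT library 1 and -2.39 without combined library 2. Of 10 neocortex genes 1 was higher and 9 lower, with a median of -0.47 that was -0.06 without WT library 3. Meningeal and mural genes gave 1 higher and 15 lower of 16, with a median of -0.20 that was -0.40 without combined library 3 and -0.08 with the midbrain covariate. Slc6a13, a transporter of the meninges, was 2.76 to 16.0 CPM in WT and 1.76 to 6.98 CPM in the combined group (-1.49, SE 0.45, edgeR adjusted p = 0.59). Choroid plexus genes were higher in 16 of 21, with a median of 0.47 that became -0.65 without combined library 5.

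Glial genes did not pass either. Of 15 astrocyte genes 6 were higher, with a median of -0.04, and of 15 genes of reactive astrocytes 11 were higher, with a median of 0.16 that was 0.07 without combined library 3. Gfap, the intermediate filament of reactive astrocytes, was 389, 339, 298, 516 and 383.5 CPM in WT libraries and 1113, 313, 722, 532 and 479 CPM in combined libraries. Combined libraries 1, 3 and 4 were above the WT libraries and library 2 was near their lowest (0.71, SE 0.23, edgeR adjusted p = 0.59). Serpina3n, a secreted protease inhibitor, was 21.7 to 52.8 CPM in WT and 116, 37.7, 69.3, 69.3 and 67.8 CPM in the combined group (0.95, SE 0.29, edgeR adjusted p = 0.59). C4b, a complement component made by astrocytes, gave 0.61 (SE 0.21, edgeR adjusted p = 0.606). Steap4, a metalloreductase of the same list, went the other way with -1.35 (SE 0.61, edgeR adjusted p = 0.763). Combined library 2 was again the one within the WT range for Serpina3n.

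Of 17 genes of homeostatic microglia 14 were higher, with a median of 0.17 that was 0.09 without combined library 5, and 4 had an unadjusted p under 0.05 (P2ry12, Olfml3 and Gpr34 among them). P2ry12, a receptor for nucleotides, was 23.9, 24.5, 37.5, 31.8 and 28.05 CPM in WT libraries and 33.2, 33.6, 33.5, 38.3 and 39.5 CPM in combined libraries. WT library 3 lay within the combined range and the other WT libraries below it (0.29, SE 0.11, edgeR adjusted p = 0.653). Of 31 genes that microglia raise near plaques 14 were higher and 17 lower, with a median of -0.01. Gpnmb, a lysosomal glycoprotein of that list, was 1.98 to 13.5 CPM in WT and 34.4, 10.7, 46.5, 16.0 and 6.96 CPM in the combined group (1.38, SE 0.47, edgeR adjusted p = 0.606). Timp2, an inhibitor of metalloproteinases on the same list, gave -0.76 (SE 0.31, edgeR adjusted p = 0.674). Among 14 complement genes 6 were higher, with a median of -0.19 that was 0.03 without WT library 3. C3ar1, a receptor for a C3 fragment, was 1.54, 1.74, 2.14, 1.61 and 2.11 CPM in WT libraries and 2.20, 2.65, 2.87, 2.32 and 2.35 CPM in combined libraries, with no overlap (0.44, SE 0.15, edgeR adjusted p = 0.606). Of all genes tested, 0.23% had the 5 combined libraries above the 5 WT libraries. Interferon-stimulated genes had 5 of 20 higher and a median of -0.05. Myelin genes had 5 of 16 higher and a median of -0.03 that was -0.46 without combined library 4 and 0.17 without combined library 1, and Mbp, the myelin basic protein, ranged from 1067 CPM in combined library 1 to 5852 CPM in combined library 4. Endothelial genes had 2 of 16 higher and a median of -0.08.

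Genes of adult neurogenesis were spread around the median of all genes. Stem and progenitor genes were higher in 12 of 20 (median 0.05), proliferation genes in 12 of 21 (0.06) and genes of neuroblasts and immature neurons in 13 of 22 (0.08, or -0.12 without combined library 3). Fabp7, a lipid-binding protein of radial glia, was 35.9, 31.1, 16.1, 17.6 and 34.1 CPM in WT libraries and 22.1, 13.5, 13.7, 9.49 and 14.8 CPM in combined libraries (-0.87, SE 0.26, edgeR adjusted p = 0.59). Combined library 1 lay within the WT range and the other 4 below it. Sox11, a transcription factor of immature neurons, was 14.0 to 35.3 CPM in WT and 40.2, 31.4, 60.0, 38.7 and 20.5 CPM in the combined group (0.52, SE 0.23, edgeR adjusted p = 0.761). Top2a, a topoisomerase of dividing cells, was 1.15 to 1.76 CPM in WT and 3.22, 1.25, 2.72, 2.96 and 1.29 CPM in the combined group (0.68, SE 0.31, edgeR adjusted p = 0.763). Aurkb, a mitotic kinase, gave 1.33 (SE 0.47) at means of 0.16 and 0.403 CPM. Dividing cells and neuroblasts are a small part of this tissue, and low levels such as those of Top2a and Aurkb limit what could be detected.

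Immediate early genes, which neurons switch on with activity, had 14 of 22 higher and a median of 0.07 that was 0.25 without WT library 3 and -0.12 with the midbrain covariate, and none had an unadjusted p under 0.05. Bdnf, a growth factor that exercise and activity are known to raise, was 36.8 to 79.1 CPM in WT and 122, 56.1, 134.5, 55.1 and 61.8 CPM in the combined group, with libraries 1 and 3 high (0.57, SE 0.30, edgeR adjusted p = 0.827). Of 19 growth factors and receptors linked with exercise 8 were higher, with a median of -0.03. Pgf gave 0.49 (SE 0.16) and Vegfa -0.30 (SE 0.12), both of the vascular growth factor family. Of 16 Wnt ligands 3 were higher, with a median of -0.15 that was -0.33 without combined library 3 and -0.04 with the midbrain covariate. Wnt9a was 16.1, 21.8, 13.4, 23.99 and 22.5 CPM in WT libraries and 5.61, 20.2, 3.11, 8.19 and 5.79 CPM in combined libraries. Combined library 2 was within the WT range and the other 4 were below it (-1.19, SE 0.35, edgeR adjusted p = 0.59). Wnt3 and Wnt4 were highest in WT library 2. Of 20 BMP ligands, receptors and antagonists 9 were higher, with a median of -0.02. Bmp7 was 6.49, 3.90, 3.63, 3.62 and 4.82 CPM in WT libraries and 1.44, 3.00, 3.07, 2.84 and 2.65 CPM in combined libraries, with no overlap (-0.79, SE 0.25, edgeR adjusted p = 0.59). Of all genes tested, 0.312% had the 5 combined libraries below the 5 WT libraries. Bmp7 is also expressed in meninges and choroid plexus.

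No gene of the synaptic lists passed. Among all genes tested 48.3% had the higher mean in the combined group. Of 20 postsynaptic scaffold and CaMKII genes 19 were higher, with a median of 0.18 that was 0.10 without WT library 1 and 0.03 with the midbrain covariate, and 1 of them, Shank2, had an unadjusted p under 0.05 (0.26, SE 0.12, edgeR adjusted p = 0.79). Of 15 AMPA, NMDA and kainate receptor genes 10 were higher, with a median of 0.17 that was 0.08 without WT library 3 and 0.01 with the midbrain covariate. Of 28 presynaptic genes 18 were higher, with a median of 0.09 that was 0.04 without combined library 5 and -0.01 with the midbrain covariate. In that list 1 higher and 2 lower genes had an unadjusted p under 0.05. They were Syn2, a phosphoprotein of synaptic vesicles (0.29, SE 0.13, edgeR adjusted p = 0.752), Slc17a6, given above, and Rims3, a protein of the active zone (-1.76, SE 0.53, edgeR adjusted p = 0.59). Against the same WT libraries the median of the postsynaptic list was -0.07 in APP/PS1 controls, -0.31 with BCI-838 alone and -0.13 with the wheel alone. The summed level of the postsynaptic list was 8341 to 13232 CPM in WT and 10346 to 16283 CPM in the combined group, so the groups overlapped. CA pyramidal markers were higher beside them, as given above, and their part in the synaptic values was not tested. Of 12 GABA-A receptor subunits 6 were higher and 6 lower, with a median of 0.02. Gabrd, the delta subunit of GABA-A receptors, on which granule neurons rely for tonic inhibition, was 40.7, 87.1, 45.5, 47.5 and 42.6 CPM in WT libraries and 30.8, 45.0, 32.5, 33.4 and 22.9 CPM in combined libraries. Combined library 2 was within the WT range and the other 4 were below it (-0.68, SE 0.21, edgeR adjusted p = 0.59).

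Housekeeping lists had medians within 0.05 of 0 on the log2 scale. These were -0.04 for 54 cytosolic ribosomal proteins, -0.05 for 50 respiratory chain genes, 0.05 for 31 proteasome genes, 0.04 for 23 lysosome genes, -0.05 for 19 genes of cholesterol synthesis and uptake and 0.01 for 24 heat shock genes. Several of these lists leaned to 1 side despite their small medians. Higher were 28 of 31 proteasome, 18 of 23 lysosome and 13 of 24 heat shock genes. For ribosomal, respiratory chain and cholesterol genes it was 13 of 54, 6 of 50 and 5 of 19, against 48.3% of all genes tested. Among the heat shock genes, Hspa1a and Hspa1b, a pair of near-identical inducible Hsp70 genes whose reads may be split, stood out. Hspa1a was 8.78, 10.3, 11.5, 9.36 and 8.60 CPM in WT libraries and 14.4, 10.1, 13.7, 13.7 and 14.8 CPM in combined libraries, with combined library 2 within the WT range and the other 4 above it (0.46, SE 0.12, edgeR adjusted p = 0.482). Hspa1b gave 0.81 (SE 0.22, edgeR adjusted p = 0.55). Of 18 circadian clock genes 10 were higher and 8 lower, with a median of 0.04. At an unadjusted p under 0.05 there were 1 higher and 4 lower. Bhlhe41, a repressor of the clock and the higher one, was 24.7 to 36.9 CPM in WT and 48.9, 38.6, 79.8, 51.9 and 27.9 CPM in the combined group (0.65, SE 0.19, edgeR adjusted p = 0.59).

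**Figure D5:**
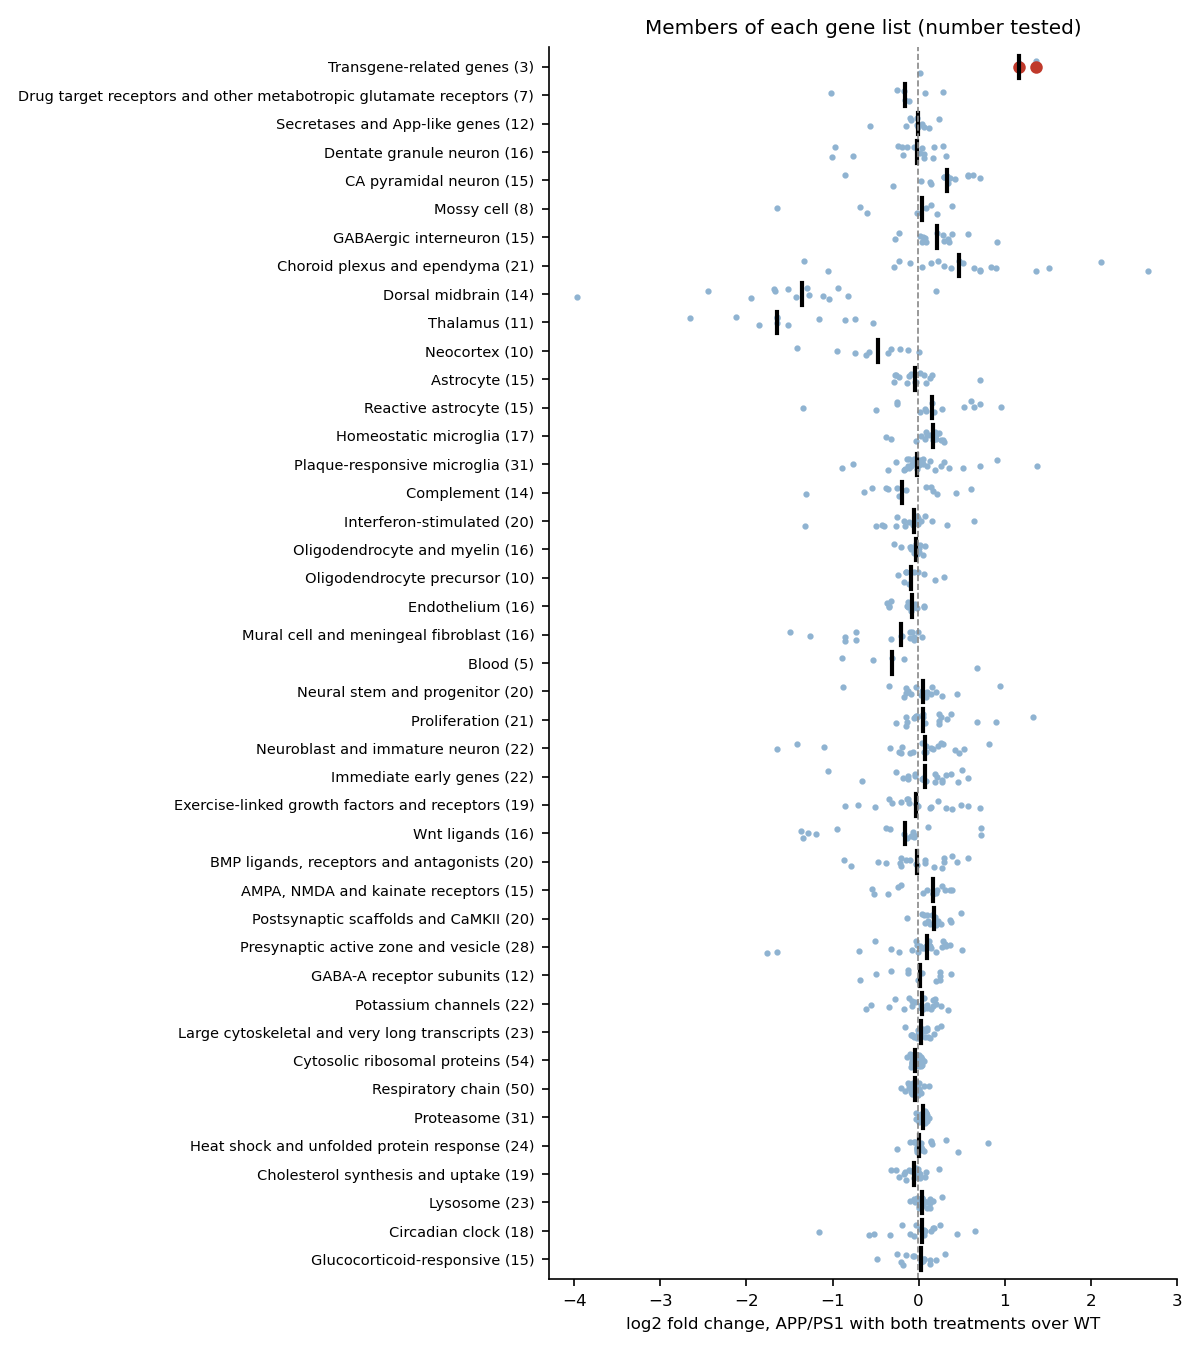
Log2 fold change of the combined group over WT for each tested member of the gene lists (points), with the list median (black bar), the number tested in brackets and the called genes in red. Thalamus and dorsal midbrain lie furthest below 0, most pathway lists centre on 0, and Prnp and App are the members that passed.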

How the data were processed

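Dentate gyrus RNA was sequenced in 5 libraries per group, or 4 with BCI-838 alone, with RNA integrity values of at least 8.4 per the labels' protocols. The authors deposited whole-number counts per gene, and the submitters' processing notes name STAR, HTSeq, DESeq and mm10, with versions not given. The deposited normalised table was not used here. From the counts, filterByExpr (minimum count 10, minimum total 15) kept 18286 of 26667 genes. All 24 libraries were fitted with TMM factors and a mean per group in edgeR 4.0.16 (R 4.3.3, quasi-likelihood, robust), with Benjamini-Hochberg adjustment over these genes. The SE comes from the log2 fold change and its F statistic. Libraries hold 48656360 to 64632882 counts. No pair of libraries agreed within sampling noise (lowest chi-square per gene 19.4).

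The members and lists were chosen with earlier results of these data known. Named were App, Prnp, Grm2, Grm3, the called genes, the 10 with the smallest p in each direction among the others without predicted genes (9 higher and 10 lower are reported), and up to 4 members of a list by p. A few genes that these rules pick are not reported here. Of the 43 lists, those not described in the text are shown in the plot of the gene lists. Alternatives were DESeq size factors, other filters, DESeq2 1.42.0, limma 3.58.1 voom, the compared libraries alone, the replicate block, tissue covariates and leaving out libraries. Coordinates are from GENCODE on GRCm38, the assembly that mm10 names, and start-site windows from RefSeq.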

Additional observations from a re-analysis of the deposited data

Results flagged for a closer look

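In 5 libraries of a group, a highest or lowest value that stands apart from the rest by over 0.71 of the whole range was noted for 24 named genes and 43 gene lists in the 2 groups. For normal values chance alone gives about 1 in 20 such groups, and 11 were found. Most of the genes were picked from these data and some lists share members, so the 11 cannot be called an excess over that rate. In the combined group, library 2 had the lowest App (3340 CPM, others 3878 to 4054) and the lowest Dpy19l3 (59.7 CPM, others 93.0 to 106), and the highest Pnpla3 (19.7 CPM, others 13.6 to 15.4). Library 3 had the highest Rprm (224 CPM, others 14.6 to 73.5). For choroid plexus genes, library 5 had the highest mean log2 CPM (2.24, others -1.11 to -0.26).

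Among WT libraries, library 1 had the lowest Rabgap1l (145 CPM, others 183 to 197). Library 2 had the highest Kmo (1.24 CPM, others 0 to 0.206) and the highest Kitl (94.0 CPM, others 21.3 to 33.8). Library 3 had the lowest Magi1 (86.2 CPM, others 129 to 145) and the highest mean log2 CPM of homeostatic microglia genes (4.73, others 4.40 to 4.46) and of ribosomal protein genes (7.51, others 7.28 to 7.31). It is the library with the least Prox1.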

How the results depend on the processing

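Prnp and App passed under each alternative run, with log2 fold changes of 1.27 to 1.49 and 1.07 to 1.29. The count of called genes against WT was 3. It was 12 with DESeq2 (6 higher and 6 lower, Sh2d5, Prr16, Chmp4c, Rprm, Kitl and Fzd10 among them) and 2 to 9 when 1 library was left out. The 9, without combined library 2, were Prnp, App, Cass4, Fst, Trib2, Wnt9a, Slc9a5, Dpy19l3 and Sntg2. With the replicate block it was 2, without Cass4 (edgeR adjusted p = 0.0862). Same-numbered WT and combined libraries correlated at -0.38 to -0.04 in their deviations from the group means, so the numbers do not pair them. Against APP/PS1 controls the count was 0, 82 with DESeq2, 1 with the replicate block, and 0 to 17 when 1 library was left out (17 without combined library 2, 1 without APP/PS1 control library 1). Kitl ranged from -1.51 to -0.75 and Prr16 from -0.96 to -0.64 when 1 library was left out. After seeing the data, fits without the libraries over 100 Ttr CPM and without WT libraries 2 and 3 were added, with 3 calls each, and Igfbp5 took the place of Cass4 in the second. Of 43 list medians 19 kept their sign in each fit run, and 24 did not. Some that kept it shrank. With the dorsal midbrain covariate the median was 0.05 for CA pyramidal (0.33 without it) and 0.03 for postsynaptic genes (0.18). For the dorsal midbrain list itself it was -0.12 (-1.36 without it). That covariate is the mean of the same list, so this fall was built into the fit and carries no information. The granule neuron median of -0.02 ranged from -0.25 (without WT library 3) to 0.24 (granule minus CA covariate). The latter covariate is likewise made in part from the granule list. The cause of the other shifts was not tested. Depth limits the transcripts near 1 CPM, such as Cass4, Aurkb and Kmo.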

Other observations

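Some genes shared an order over the combined libraries, with replicates 1, 3 and 4 above replicates 2 and 5, as given for Rprm, Col6a1 and Cass4. Penk and Drd1a, chosen after their values were seen, showed it too. How many of all genes have this order was not counted, so it cannot be said to be more common than by chance. Penk, the precursor of enkephalins, was 20.9 to 43.6 CPM in WT and 67.5, 26.6, 213, 78.8 and 31.6 CPM in combined libraries 1 to 5 (log2 fold change 1.55, SE 0.47, edgeR adjusted p = 0.59). Its median was 23.4 CPM in APP/PS1 controls, 151 CPM with BCI-838 alone and 25.4 CPM with the wheel alone. Drd1a, a dopamine receptor gene as the table names it, was 3.51 to 12.96 CPM in WT and 30.3, 12.2, 59.1, 16.4 and 4.54 CPM in the combined group (1.46, SE 0.44, edgeR adjusted p = 0.59). With BCI-838 alone the 4 libraries lay at 22.3 to 46.4 CPM. Neither gene passed.

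Hrk, which encodes a pro-apoptotic protein and was likewise chosen after its values were seen, was 42.1 to 87.4 CPM in WT and 48.5, 77.3, 33.1, 31.8 and 59.3 CPM in the combined group (log2 fold change -0.39, SE 0.27, edgeR adjusted p = 0.879). It was 20.6 to 32.2 CPM with BCI-838 alone. Combined libraries 3 and 4 were below the WT libraries, and the other 3 lay within their range.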
